A study of Mus musculus with 6 samples.

Results

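The cytosolic ribosomal protein genes encode the proteins that, with ribosomal RNA, build the large and small subunits of the ribosome in the cytoplasm. They were chosen here by symbol, as the genes whose name begins with Rpl or Rps followed by a digit, together with Rplp0, Rplp1, Rplp2 and Rpsa. Names holding -ps, which mark pseudogenes, and the Rps6k kinases and Rps19bp genes were left out. The rule found 92 of the 55421 genes in the deposited table. Of these, 46 encode canonical proteins of the large subunit and 31 canonical proteins of the small subunit, so that 77 of the 80 proteins of the cytosolic ribosome were covered. Fau and Rack1, which encode other ribosomal proteins, carry names outside the rule and are described separately. The remaining 15 members are paralogs and retrocopies with a ribosomal protein name, 8 of them annotated as protein coding and 7 as pseudogenes. The 77 canonical genes lie on 19 chromosomes, with at most 14 on any single chromosome.

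Ribosomal proteins are needed in equal numbers, since each ribosome holds a copy of nearly every one, and the acidic stalk proteins are the known exception. Their mRNAs are short, abundant and stable, and most begin with a run of pyrimidines right at the transcription start, the 5′ terminal oligopyrimidine (TOP) element, through which mTORC1 controls their translation. In neurons ribosomal protein mRNAs are found in dendrites and axons as well as in the soma. The level of such an mRNA says nothing by itself about how much protein is made from it.

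Hippocampi came from 2 groups of male wild-type C57BL/6N mice aged 8 to 10 weeks, with 3 mice in each. The SP group received substance P (10 µM, 100 µL) under the skin on 14 consecutive days, and the vehicle group received saline in the same volume. SP is a neuropeptide of sensory nerve endings. Each mouse gave 1 library of stranded mRNA from the whole hippocampus, and a replicate number (1 to 3) that recurs in both groups is named batch in the labels. The labels do not say whether mice with the same number shared a cage or a day of dissection.

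The libraries held between 22349964 and 27605935 estimated counts, and 16496 to 16990 genes reached 10 counts in a library. All 8 markers of hippocampal principal neurons reached 10 counts in every library, with a summed level of 904 to 959 CPM (edgeR's counts scaled to the normalized library size) in vehicle and 905 to 1104 CPM in SP. The 8 markers of the choroid plexus summed to 3810 to 4751 CPM in vehicle and to 176, 2813 and 3970 CPM in SP 1 to 3, so that SP 1 stood far apart and SP 2 also lay below every vehicle library. The 8 oligodendrocyte markers summed to 2168 to 2487 CPM in vehicle and to 2512 to 3621 CPM in SP, and all 8 had a log2 fold change (log2FC, SP over vehicle) above 0. Markers of microglia (277 to 289 CPM in vehicle, 268 to 286 CPM in SP) and endothelium (169 to 179 CPM and 169 to 176 CPM) overlapped between the groups. Blood genes also overlapped, at 140.2 to 175 CPM and 135 to 238 CPM. Of 4 striated muscle genes, 1 reached 10 counts in every library.

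The canonical ribosomal protein genes were expressed in every library, with 1201 to 10820 counts per gene and library. Compared per length of transcript, the 46 large subunit genes had a median level of 187 CPM per kb (quartiles 143 and 260.2) and the 31 small subunit genes a median of 219 CPM per kb (quartiles 151 and 259), so that the quartile ranges of both subunits overlapped. The highest level belonged to Rplp1, an acidic protein of the stalk that recruits translation factors, at 591 CPM per kb (441 to 689.8 over the 6 libraries). Next came 3 small subunit genes, Rps24 at 467, Rps15 at 455 and Rps29 at 401 CPM per kb, and Rpl41, the shortest ribosomal protein, at 373 CPM per kb. Rplp2, the acidic partner of Rplp1, lay near the large subunit median, at 187 CPM per kb. The levels of Rps24 and Rps15 differed by less than the range over libraries, which was 439 to 498 CPM per kb for Rps24 and 415 to 509 CPM per kb for Rps15.

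The lowest levels per length were those of Rps20 at 24.8 CPM per kb, Rps16 at 75.8, Rpl39 at 98.4, Rpl14 at 105 and Rpl35 at 107. For Rps20, the annotated transcript by which its level was divided is 3706 bases long, against at most 2045 bases for any other canonical gene, and its CPM (81.8 to 104) lay within the range of the rest. The lengths used for Rps16, Rpl14 and Rpl35 (1109, 1009 and 946 bases) also lay above the canonical median of 680 bases, so that these ranks depend on the transcript chosen. Without Rps20 the highest level was 7.80 times the lowest. Rpl39 encodes a very small protein at the exit tunnel, and Rpl14 and Rpl35 encode other large subunit proteins.

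**Figure D1:**
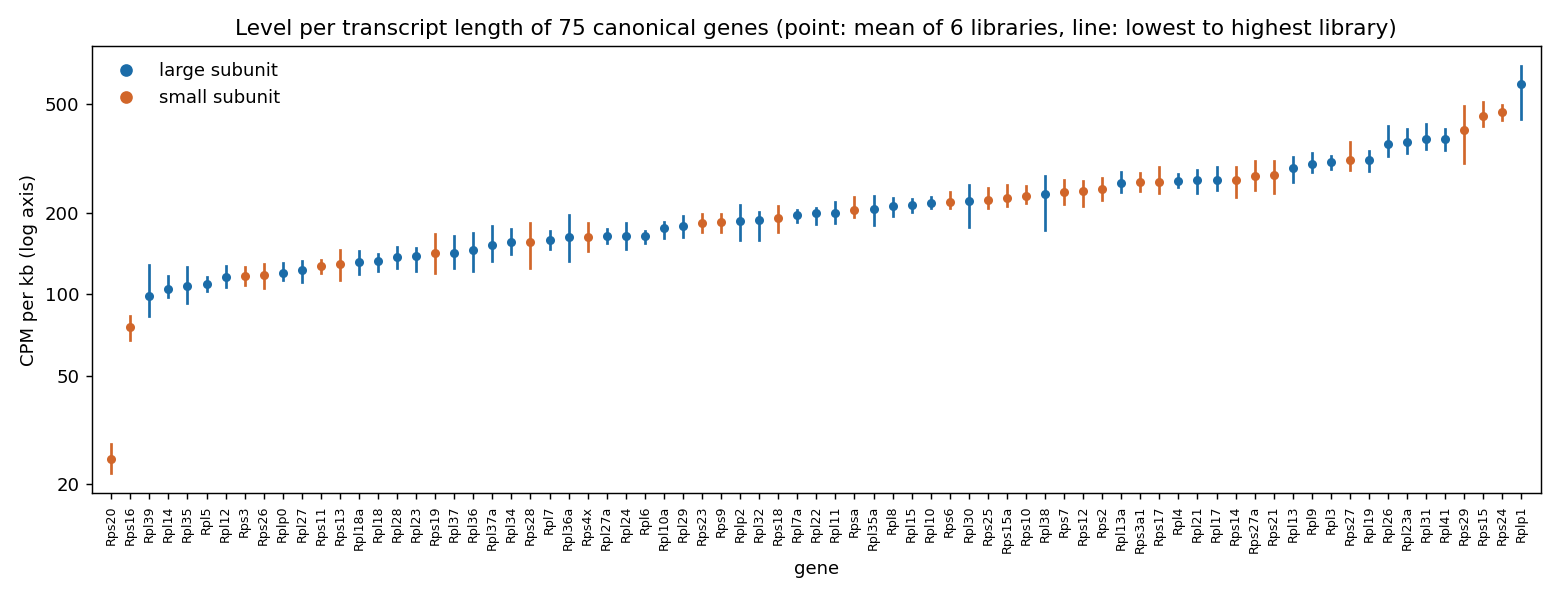
Level of 75 of the 77 canonical ribosomal protein genes in CPM per kb of transcript (log axis), in ascending order, with the mean of the 6 libraries as a point and the lowest to highest library as a line. Large and small subunit genes are interleaved, from Rps20 at 24.8 to Rplp1 at 591 CPM per kb, and apart from Rps20 the lines of neighbouring genes overlap.

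The summed share of counts in the 92 members was 1.15%, 1.24% and 1.12% in vehicle 1 to 3 and 1.26%, 1.21% and 1.32% in SP 1 to 3. Vehicle 2 lay above SP 2, so the groups overlapped, with means of 1.17% ± 0.0655 in vehicle and 1.27% ± 0.0528 in SP (SD, n = 3). The difference of the means, 0.0944 percentage points, was 0.157 without batch 2 and 0.0416 without batch 3. The Wilson 95% interval of each share was under 0.01 percentage points wide and covers counting error only, so that the differences between libraries exceeded counting error. The large subunit took 0.699%, 0.754% and 0.674% of counts in vehicle and 0.767%, 0.729% and 0.796% in SP. The small subunit took 0.436%, 0.473% and 0.4298% in vehicle and 0.482%, 0.469% and 0.504% in SP. Both subunits ordered the libraries alike, and their ratio stayed between 1.56 and 1.60 over the 6 libraries.

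The libraries differed from each other across nearly the whole set. For each canonical gene the log2 CPM was compared with its own mean over the 6 libraries. In vehicle 1, 0 of the 77 genes lay above their own mean, with a median deviation of -0.09. In vehicle 3 only 1 gene did, with a median of -0.11, and in vehicle 2 it was 59 genes, with a median of 0.02. In SP 3, 76 genes lay above their mean (median 0.12), in SP 1 59 genes (median 0.06) and in SP 2 40 genes (median 0.01). SP 3 was the highest library for 45 genes, SP 1 for 17, SP 2 for 12 and vehicle 2 for 3. Vehicle 3 was the lowest library for 42 genes, vehicle 1 for 26 and SP 2 for 9. The order of the library medians was the same in both subunits, except that SP 2 lay below vehicle 2 in the large subunit (-0.01 and 0.03) and above it in the small subunit (0.03 and 0.02).

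**Figure D2:**
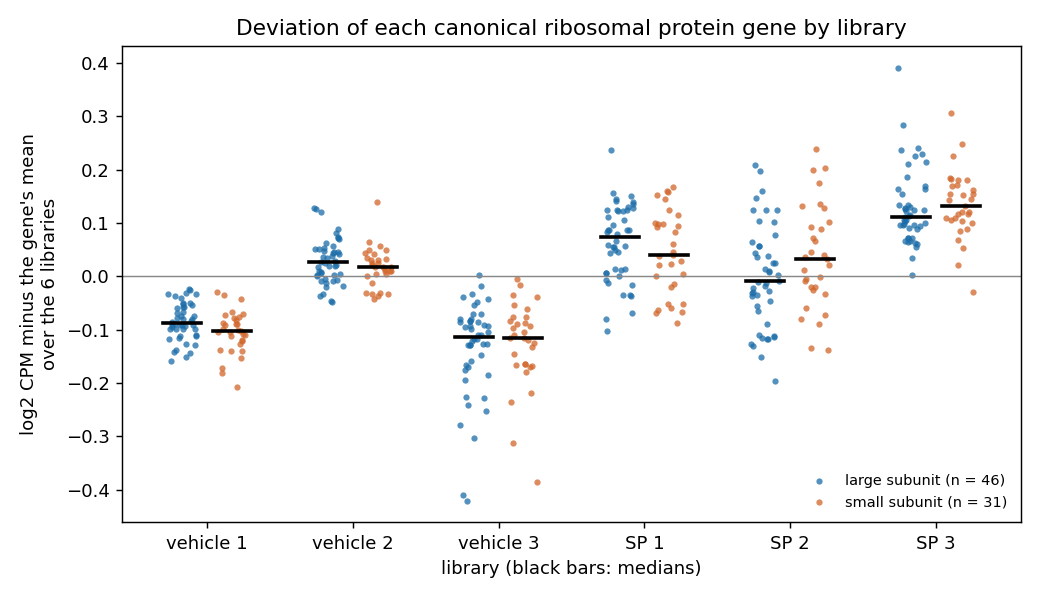
Deviation of log2 CPM from each gene's mean over the 6 libraries, for 46 large subunit genes (blue) and 31 small subunit genes (orange), with medians as black bars. Vehicle 1 and vehicle 3 lie almost wholly below 0 and SP 3 almost wholly above it, while vehicle 2 and SP 2 straddle 0.

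Other genes also deviated in the same libraries. Among 1080 other tested genes with transcripts under 800 bases, the median deviation was -0.01, 0.03 and -0.07 in vehicle 1 to 3 and 0.02, -0.02 and 0.09 in SP 1 to 3. The 78 genes of mitochondrial ribosomal proteins, which serve a separate ribosome, had medians of -0.01, 0.02 and -0.07 in vehicle and 0.05, -0.04 and 0.06 in SP. Over all 17069 tested genes these medians lay between -0.0004 and 0.008. In vehicle 1, by contrast, the canonical genes were low (median -0.09) where the short genes were near 0. The mitochondrial ribosomal protein genes, like the short genes, had their lowest median in vehicle 3 and their highest in SP 3.

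The comparison of SP with vehicle asks whether hippocampal expression changed after repeated peripheral SP. No ribosomal protein gene was called a DEG (FDR < 0.1 and |log2FC| > 0.3) by edgeR's quasi-likelihood test with the batch number as a block, where 5 of 17069 tested genes were called (0.0293%). Of the 92 members, 86 passed the filter on low counts, among them all 77 canonical genes. The fold changes of these 86 lay mostly on one side, with 81 above 0, against 50.5% of all tested genes. Their median log2FC was 0.13, against 0.001 for all tested genes. At an unadjusted p under 0.05, 22 members were higher in SP, where the share over all tested genes was 4.48%, and 0 were lower, where it was 5.59%. The 3 SP values lay above all 3 vehicle values for 18 members (9.19% of all tested genes) and below them for 0 (9.03%). In whole tissue, a lower content of a cell type and less RNA per cell cannot be told apart. Markers of several cell types also had median log2FC values away from 0. All 8 oligodendrocyte markers had a log2FC above 0 (median 0.33, 6 at an unadjusted p under 0.05), with sums of 2168 to 2487 CPM in vehicle and 2512 to 3621 CPM in SP. Of the 8 principal neuron markers 7 did (median 0.25, 4 at that threshold), although their sums overlapped at 904 to 959 CPM and 905 to 1104 CPM. All 8 choroid plexus markers had a log2FC below 0 (median -1.10, 3 at that threshold), with sums of 3810 to 4751 CPM and 176 to 3970 CPM. All 5 blood genes had a log2FC above 0 (median 0.23, 0 at that threshold), with overlapping sums of 140.2 to 175 CPM and 135 to 238 CPM. The 2 tested striated muscle genes had a median of -0.64 (1 at that threshold), with low sums of 3.85 to 4.97 CPM and 3.11 to 3.73 CPM. The part of these tissues and cell types in the result was not tested.

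Within batches the difference was uneven. The median log2 difference of the tested members, SP minus vehicle, was 0.15 in batch 1, -0.02 in batch 2 and 0.23 in batch 3. The SP mouse was higher for 78, 38 and 83 of the 86 members. In each batch the corresponding median over all tested genes was within 0.002 of 0. A total of 33 members were higher in SP in 3 of 3 batches and 48 in 2 of 3, and the members share the same mice and are not independent. The count of members with an unadjusted p under 0.05 therefore depended on the mice used. It was 67 without batch 2 (5.34% of all tested genes were higher), 11 without batch 1 (2.39%) and 2 without batch 3 (4.57%), and the median log2FC was 0.20, 0.10 and 0.06. Without the block it was 31 (6.08%). Single libraries were then left out of that fit, and the count was 14 without vehicle 1 (3.69%), 47 without vehicle 2 (4.55%), 10 without vehicle 3 (3.76%), 50 without SP 2 (5.74%) and 11 without SP 3 (7.11%). Without SP 1, the library low in choroid plexus markers, it was 29 (5.37%). The count was 14 of 90 members in DESeq2 with the block (1.14% of 28039 genes, with no filter on low counts). In limma-voom it was 22 of 86 (4.59% of 17069 filtered genes). Both tools also called 0 members, where they called 26 and 2 of all these genes.

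Among the stalk proteins, Rplp1 (chr9:61913284-61914542, GRCm38, minus strand) measured 277, 302 and 219.9 CPM in vehicle and 309, 318 and 344 CPM in SP. All SP values lay above all vehicle values, with vehicle 3 far below the others. Its log2FC of 0.29 (SE 0.10) was the largest of all members, and its FDR was 0.43 by edgeR's quasi-likelihood test. The log2FC was 0.12 without batch 3 and 0.40 without batch 2. Rplp0, which anchors the stalk to the ribosome, measured 153, 157 and 155 CPM in vehicle and 172, 177 and 163 CPM in SP, again without overlap (log2FC 0.14, SE 0.05, FDR 0.44 in the same edgeR fit). Rplp2, the partner of Rplp1 in the stalk, measured 75.5, 79.3 and 66.9 CPM in vehicle and 74.6, 89.7 and 85.5 CPM in SP. Here SP 1 lay within the vehicle values (log2FC 0.17, SE 0.08).

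In the large subunit, 45 of 46 genes had a log2FC above 0, with a median of 0.12 and quartiles of 0.09 and 0.16. At an unadjusted p under 0.05, 9 were higher and 0 lower, where 4.48% and 5.59% of all tested genes were. Rpl37 (chr15:5116645-5119140, plus strand), a zinc-binding protein, measured 105, 116 and 105 CPM in vehicle and 122, 124 and 136 CPM in SP. The groups did not overlap (log2FC 0.23, SE 0.07, FDR 0.38 by edgeR's quasi-likelihood test). Without batch 3 the log2FC of Rpl37 was 0.15. Rpl36 measured 51.6, 56.4 and 46.7 CPM in vehicle and 55.7, 64.4 and 61.1 CPM in SP, so that SP 1 lay below vehicle 2 (log2FC 0.23, SE 0.07, and 0.15 without batch 3). Rpl36 also shares 94.1% of its 31-base stretches with transcripts of other genes, the highest share of any canonical gene, and how its reads were divided is uncertain. The lowest large subunit gene was Rpl18, at 87.8, 95.5 and 89.9 CPM in vehicle and 89.0, 82.8 and 94.5 CPM in SP. It was the sole canonical gene below 0 (log2FC -0.04, SE 0.07).

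In the small subunit all 31 genes had a log2FC above 0, with a median of 0.13 and quartiles of 0.11 and 0.18, and 13 were higher at an unadjusted p under 0.05, against 4.48% of all tested genes. Rps29 (chr12:69157722-69159186, minus strand), another zinc-binding protein, measured 146, 158 and 118 CPM in vehicle and 147, 178 and 191 CPM in SP. SP 1 lay among the vehicle values and vehicle 3 far below them (log2FC 0.29, SE 0.12, FDR 0.47 in the edgeR fit). Its log2FC ranged from 0.09 without batch 3 to 0.43 without batch 1. Rps24 had the smallest log2FC of the small subunit, 0.05 (SE 0.06), at 240.3, 248 and 235 CPM in vehicle and 261, 231 and 257 CPM in SP.

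The tested members outside both lists of canonical genes were spread more widely around 0. Of 9 such members 5 had a log2FC above 0, and 0 had an unadjusted p under 0.05. The lowest was Rpl6l, a processed pseudogene with 6 to 17 counts per library, at 0.73, 0.36 and 0.33 CPM in vehicle and 0.47, 0.33 and 0.27 CPM in SP (log2FC -0.38, SE 0.38). Rpl37rt, a transcribed pseudogene, followed at -0.10 (SE 0.23), with 1.68, 1.54 and 1.49 CPM in vehicle and 1.24, 1.41 and 1.75 CPM in SP. Rpl6l shares 84.4% and Rpl37rt 48.1% of its 31-base stretches with transcripts of other genes, so that how their reads were divided is uncertain.

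**Figure D3:**
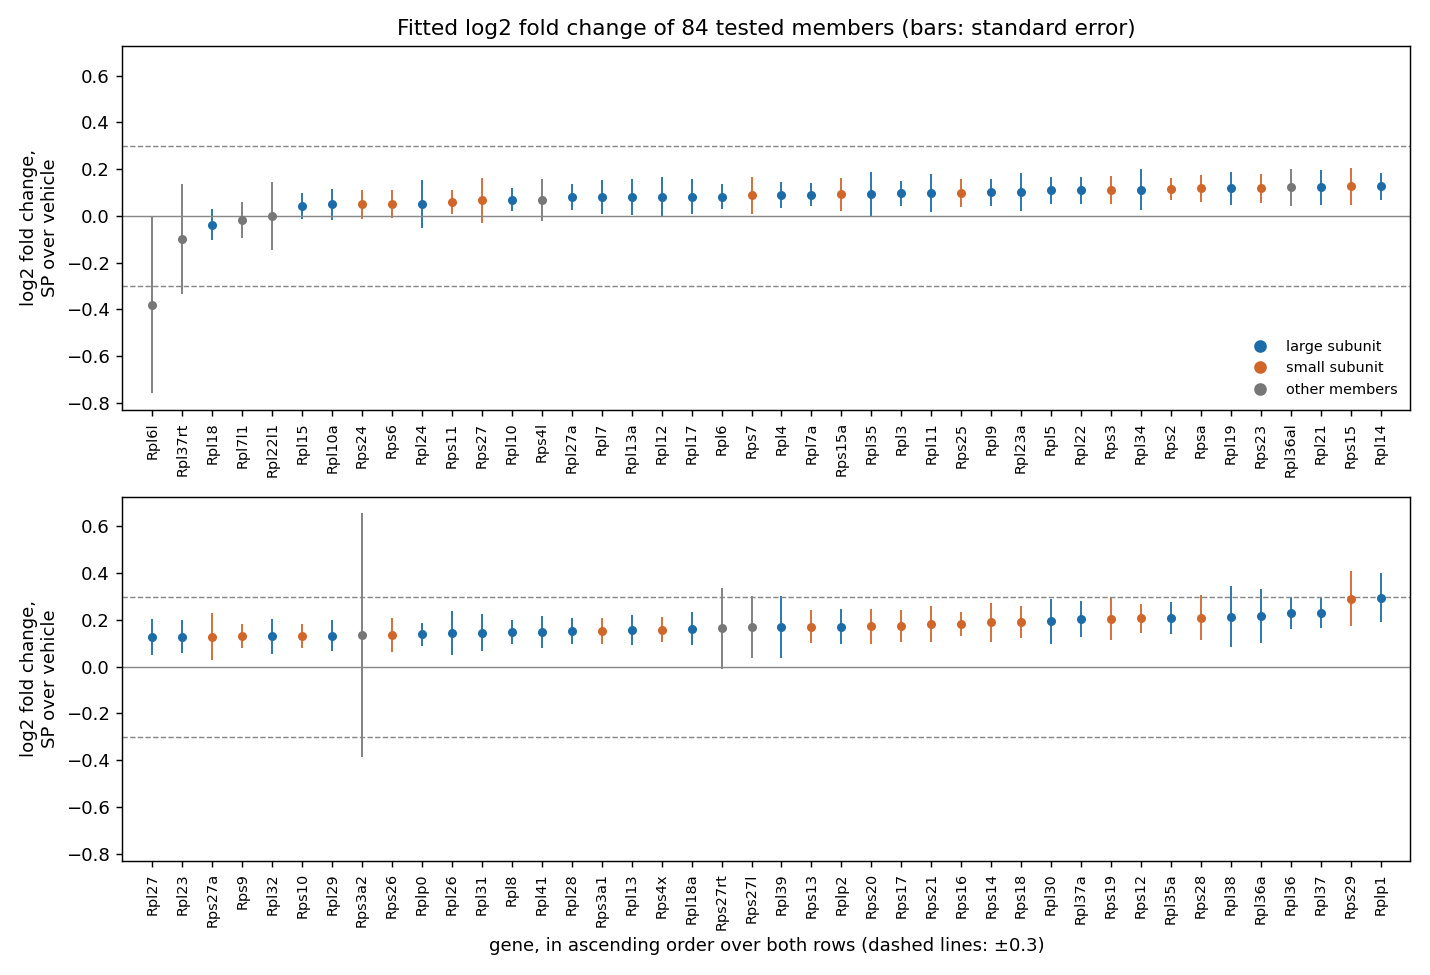
Fitted log2FC (SP over vehicle) with standard error for 84 of the 86 tested members in ascending order over both rows, coloured by subunit, with dashed lines at ±0.3. Only Rpl6l lies past a dashed line, 79 points lie above 0, and the longest bars belong to low-count pseudogenes such as Rps3a2 and Rpl6l.

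Fau and Rack1, outside the naming rule, lay higher in SP, as most members did. Fau, a fusion of a ubiquitin-like protein with the small subunit protein eS30, measured 94.2, 104 and 102 CPM in vehicle and 107, 107 and 114 CPM in SP. Rack1, a scaffold on the head of the small subunit, measured 133, 139.7 and 136 CPM in vehicle and 139.8, 149.5 and 146 CPM in SP. For both the lowest SP value lay above the highest vehicle value. Their log2FC was 0.13 (SE 0.05) and 0.09 (SE 0.05), and neither was called, with FDRs of 0.48 and 0.56 by edgeR's quasi-likelihood test.

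SP 2 was the only library that was the highest for some canonical genes and the lowest for others. The 12 genes for which it was the highest library included Rpl14, Rpl28, Rpl32, Rpl36, Rplp0, Rplp2, Rps2, Rps9, Rps13 and Rps28. It was the lowest for Rpl11, Rpl12, Rpl18, Rpl23a, Rpl24, Rpl26, Rpl35, Rps7 and Rps24. For example, Rpl35 measured 94.1, 100.3 and 98.4 CPM in vehicle and 119, 88.0 and 108 CPM in SP, so that the SP values lay on both sides of the vehicle values. The genes highest in SP 2 were 6 of the small and 6 of the large subunit, and those lowest in it were 2 and 7. The median GC content was 54.7% in the former, 51.6% in the latter and 51.8% over all canonical genes, and the median lengths were 756, 679 and 680 bases.

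The spread between mice also differed among members. The within-group SD of log2 CPM had a median of 0.09 over the 77 canonical genes and ranged from 0.03 to 0.23. The median was 0.06 over 3782 other tested genes in the same range of mean level (56.0 to 416 CPM). The smallest SDs were those of Rpl7a (0.03), Rpl10 (0.03), Rpl6 (0.04), Rps10 (0.04) and Rpl4 (0.04). Rpl7a measured 175, 177 and 169 CPM in vehicle and 187, 184 and 184 CPM in SP, and its groups did not overlap, although its log2FC was only 0.09 (SE 0.05). Rpl10, which joins the large subunit in the last steps of its maturation, measured 166, 174 and 169 CPM in vehicle and 175, 177 and 182 CPM in SP.

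The largest SDs were those of Rpl39 (0.23), Rpl38 (0.21), Rps29 (0.20), Rpl36a (0.18) and Rps28 (0.18), all of which have short transcripts of 345 to 612 bases. Rpl39 measured 53.6, 65.0 and 50.9 CPM in vehicle and 55.5, 58.2 and 78.2 CPM in SP, with SP 3 far above the rest. Rpl38, which is known for its part in the translation of Hox mRNAs, measured 78.5, 86.8 and 59.7 CPM in vehicle and 84.8, 80.3 and 93.6 CPM in SP, with vehicle 3 far below the rest. For 20 of the 77 genes the log2FC was smaller than the SD within a group.

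Both the spread and the fold change varied with transcript length. Across the 77 canonical genes, which share the same libraries and are not independent, the within-group SD had Pearson's r of -0.50 and Spearman's rho of -0.53 with log2 length, and the log2FC had r of -0.31 and rho of -0.39. With GC content, r was 0.05 for the SD and 0.12 for the log2FC. The shortest 26 genes (345 to 577 bases) had a median log2FC of 0.17 and a median SD of 0.12. The middle 25 genes (583 to 835 bases) had medians of 0.13 and 0.09, and the longest 26 genes (851 to 3706 bases) had medians of 0.12 and 0.07. Other tested genes in the same 3 ranges of length had a median log2FC of 0.07 (351 genes), 0.03 (788 genes) and 0.006 (10727 genes), below the median of the members in each. Lengths were not matched within a range, and the upper limit of the longest, 3706 bases, was set by Rps20 alone. The trend was strongest in batch 3. The deviation in vehicle 3 had r of 0.47 with log2 length, that in SP 3 had r of -0.42, and those in the other libraries lay between -0.28 and 0.14. When a trend on length and GC content was removed from each library, the median log2FC of the members was 0.10, against 0.03 for all tested genes, and 25 members had an unadjusted p under 0.05 and were higher (6.83% of all tested genes).

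**Figure D4:**
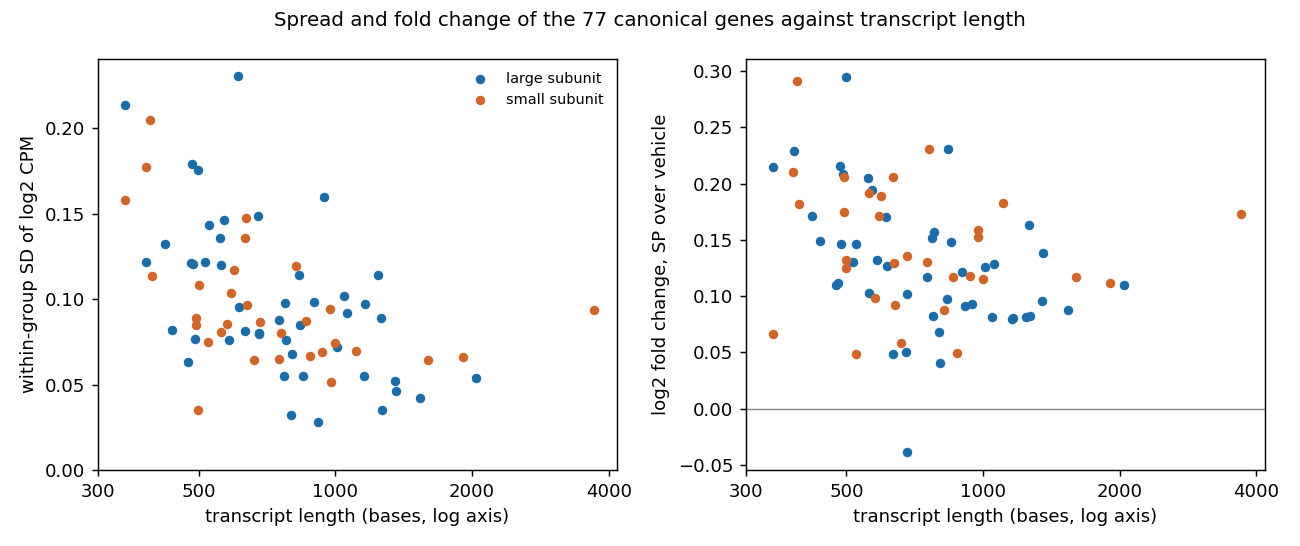
Within-group SD of log2 CPM (left) and log2FC of SP over vehicle (right) of the 77 canonical genes against transcript length in bases on a log axis, with large subunit genes in blue and small subunit genes in orange. Points fall from left to right in both panels, from medians of 0.12 (SD) and 0.17 (log2FC) in the shortest 26 genes to 0.07 and 0.12 in the longest 26.

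Several ribosomal proteins have a paralog that can take their place in particular tissues. A list of 12 pairs held such paralogs and also other relatives and pseudogene copies (Rps3a2, Rps3a3 and Rps4l), and 9 of the pairs could be compared. Rpl10l and the pseudogene Rps12l1 had 0 counts in all libraries. For Rpl10l this allows a level of up to 0.109 to 0.134 CPM (3 counts of each library total). Rps12l1 shares 100% of its 31-base stretches with Rps12, so its 0 counts rest on how Salmon divided reads and set no upper limit. Rps23rg1 was not analysed here. Rpl39l, a paralog of Rpl39 known from the testis, had 5, 0 and 0 counts in vehicle and 0, 1 and 0 in SP. Rpl32l had 1 count in vehicle 2 and 0 elsewhere. Rpl3l, the paralog of Rpl3 in skeletal and heart muscle, had 3, 7 and 3 counts in vehicle and 3, 3 and 2 in SP, while Rpl3 measured 389.5 to 437 CPM. The paralogs of testis and muscle were thus at or near 0 in hippocampus.

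How far a paralog's reads can be told from its partner's depends on their sequences, so pairs with coding sequences of equal length were set side by side. Rpl10l and Rpl10, with 645 bases each, differ at 98 of them, an identity of 84.8%, and are not printed. The coding sequences of Rpl39 (chrX:37082520-37085402, minus strand) and Rpl39l (chr16:10170226-10174911, plus strand) have 156 bases and differ at 23 of them, an identity of 85.3%. They are printed from GENCODE M21 transcripts on GRCm38, with the bases of the paralog that differ from its partner in capitals.
Rpl39: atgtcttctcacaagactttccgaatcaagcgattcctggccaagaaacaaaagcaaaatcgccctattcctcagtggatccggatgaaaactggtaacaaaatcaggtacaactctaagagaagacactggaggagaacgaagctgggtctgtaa
Rpl39l: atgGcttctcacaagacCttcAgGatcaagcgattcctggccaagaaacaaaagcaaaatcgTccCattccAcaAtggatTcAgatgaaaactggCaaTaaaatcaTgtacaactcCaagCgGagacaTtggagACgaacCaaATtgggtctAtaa
Rpl36al (chr12:69182731-69184083, minus strand), an autosomal paralog, differs from Rpl36a (chrX:134585654-134588062, plus strand) at 39 of 321 bases, an identity of 87.9%, and the first 150 bases are shown because 23 of the differences fall there.
Rpl36a: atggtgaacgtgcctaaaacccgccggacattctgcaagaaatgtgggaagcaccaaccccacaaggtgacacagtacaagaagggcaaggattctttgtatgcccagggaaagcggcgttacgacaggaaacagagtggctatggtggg
Rpl36al: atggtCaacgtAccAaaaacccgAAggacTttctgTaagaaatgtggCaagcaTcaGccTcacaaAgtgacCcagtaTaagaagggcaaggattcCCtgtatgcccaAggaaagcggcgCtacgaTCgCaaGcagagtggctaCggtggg
Rps27l (chr9:66946086-66949516, plus strand), a paralog known as a p53 target, differs from Rps27 (chr3:90212522-90213651, minus strand) at 61 of 255 bases, an identity of 76.1%.
Rps27: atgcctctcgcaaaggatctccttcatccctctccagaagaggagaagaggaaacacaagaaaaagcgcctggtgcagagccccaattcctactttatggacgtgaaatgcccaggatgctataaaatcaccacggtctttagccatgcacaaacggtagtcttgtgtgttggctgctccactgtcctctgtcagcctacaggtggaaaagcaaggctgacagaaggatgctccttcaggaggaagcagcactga
Rps27l: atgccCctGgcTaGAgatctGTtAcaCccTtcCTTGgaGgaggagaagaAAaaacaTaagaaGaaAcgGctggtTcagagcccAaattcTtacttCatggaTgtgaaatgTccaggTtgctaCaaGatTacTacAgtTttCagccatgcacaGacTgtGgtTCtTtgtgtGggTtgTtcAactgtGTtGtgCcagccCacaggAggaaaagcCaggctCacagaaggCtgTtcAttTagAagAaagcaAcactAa
The retrogene Rps27rt (chr9:114982366-114982739, minus strand) carries the coding sequence of Rps27 letter for letter, with 0 of 255 bases different.

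Over whole transcripts, Rpl36al, Rps27l, Rpl22l1, Rpl7l1 and Rpl3l share 0 stretches of 31 bases with their partners, whereas Rps27rt shares 91.6% of its stretches with Rps27, Rps3a2 84.8% with Rps3a1 and Rps3a3 67.2% with Rps3a1. The counts of those 3 retrocopies rest on how Salmon divided reads that match both genes and are uncertain. The closest to its partner in level was Rpl36al, at 45.3, 49.1 and 41.8 CPM in vehicle and 50.2, 46.6 and 51.1 CPM in SP, beside Rpl36a at 74.9, 78.1 and 64.0 CPM in vehicle and 86.2, 71.8 and 94.6 CPM in SP. Per length of transcript Rpl36al reached 55.6% of Rpl36a (49.6% to 59.9% over libraries). Rpl22l1, which can stand in for the RNA-binding protein Rpl22, reached 39.8% of it (33.3% to 47.1%). It measured 40.6, 50.6 and 39.3 CPM in vehicle and 39.6, 37.6 and 53.9 CPM in SP, beside 88.6, 96.9 and 86.03 CPM and 97.5, 96.8 and 98.3 CPM of Rpl22. Rpl22l1 thus varied more between mice of a group than Rpl22, with a within-group SD of 0.24 against 0.06 on the log2 scale, and its highest values were those of vehicle 2 and SP 3.

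The other paralogs were lower. Rps4l, annotated as a transcribed pseudogene, reached 13.2% of Rps4x per length (10.1% to 15.3%), and Rpl7l1, a nucleolar relative of Rpl7, 7.86% of Rpl7 (6.86% to 8.91%). Rps27l reached 5.49% of Rps27 (4.96% to 5.94%) and Rps27rt 2.05% (1.72% to 2.46%). Rps3a2, Rps3a3 and Rpl3l stayed under 0.4% of their partners in every library. The ratio of paralog to partner was compared between SP and vehicle for each of the 9 pairs on the log2 scale with 0.5 counts added. The groups overlapped in all 9 pairs, and the exact permutation test (two-sided, smallest possible p with 3 against 3 of 0.1) gave p from 0.3 to 1 and a Benjamini-Hochberg adjusted p of at least 0.9. The difference of the log2 ratio, SP minus vehicle, was -0.09 (SE 0.08) for Rpl36al/Rpl36a, -0.11 (SE 0.17) for Rpl22l1/Rpl22, -0.10 (SE 0.11) for Rpl7l1/Rpl7 and 0.10 (SE 0.08) for Rps27l/Rps27. At this number of mice a shift of the size of these errors was not detectable. No shift of any size could give a p under 0.1 in this permutation test.

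**Figure D5:**
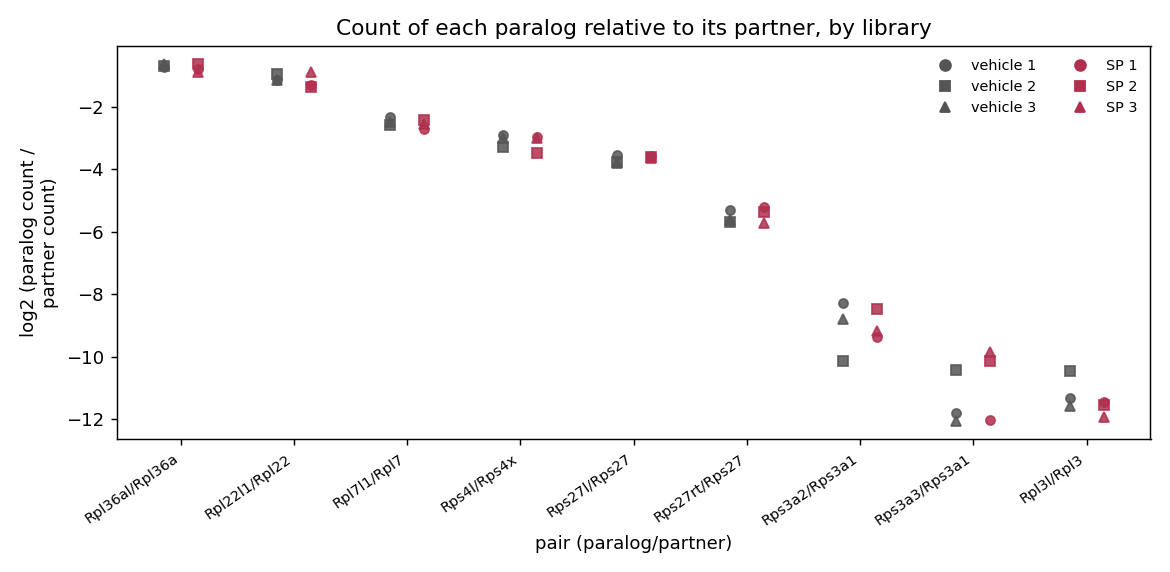
Log2 ratio of the count of each paralog to that of its partner in each library, in vehicle (grey) and SP (red), with a marker for each batch, for the 9 pairs in descending order. Ratios of the first 6 pairs lie within 0.6 of each other over the 6 libraries, the 3 pairs with the fewest paralog counts scatter more widely, and the groups overlap in every pair.

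Ribosomal protein genes share features at their transcription starts. The RefSeq promoter windows on GRCm38.p6, which run from 250 bases before to 50 bases after each start, matched 57 of the 77 canonical genes. A C at the annotated start followed by 4 or more C or T bases, as in a TOP element, was present in 13 of the 57 (22.8%), against 3.01% of 27025 genes. The annotated start can lie some bases away from the one used, so the share is of the annotation and not of mRNAs. Examples with runs of 5 to 13 bases are shown from 10 bases before to 20 bases after the start, with the run in capitals.
Rpl15 (chr14:18270967-18270996, minus strand): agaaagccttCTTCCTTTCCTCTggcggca
Rpl35 (chr2:39005112-39005141, minus strand): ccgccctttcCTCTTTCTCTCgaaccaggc
Rps10 (chr17:27635225-27635254, minus strand): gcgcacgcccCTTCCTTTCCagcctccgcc
Rps6 (chr4:86857348-86857377, minus strand): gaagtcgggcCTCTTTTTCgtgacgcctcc
Rpl38 (chr11:114668570-114668599, plus strand): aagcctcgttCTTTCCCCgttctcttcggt
Rps21 (chr2:180257369-180257398, plus strand): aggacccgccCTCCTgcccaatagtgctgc
The letters CTTCCG, the core of sites for Ets-type factors, were found on either strand in 40 of the 57 windows (70.2%), against 18.8% of all genes, and the longer CTTCCGG, which contains it, in 24 (42.1%), against 9.93%. The letters AAGATGGC, part of sites for the factor Yy1, were found in 5 (8.77%), against 3.19%. The 13 genes with the run at the start had a median log2FC of 0.13 (0.04 to 0.21) and the other 44 a median of 0.12 (-0.04 to 0.23), so that both sets covered much the same range. Of the printed genes, Rps10 measured 109.6, 111 and 108 CPM in vehicle and 119, 118 and 124 CPM in SP without overlap (log2FC 0.13, SE 0.05). Rpl15 (log2FC 0.04, SE 0.06) and Rps6 (log2FC 0.05, SE 0.06), the substrate of the S6 kinases, overlapped between the groups.

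The other lists of genes with TOP elements or with roles in translation had median fold changes nearer 0 than the ribosomal protein genes. At an unadjusted p under 0.05, 4.48% of all tested genes were higher and 5.59% lower, and the counts in these lists lay near or below those shares. The 13 other tested genes known for a TOP element, most of them translation factors, had a median log2FC of 0.03, from Nap1l1, a nucleosome assembly protein, at -0.02 (SE 0.05) to Eif3e at 0.08 (SE 0.07), and 0 of 13 had an unadjusted p under 0.05 in either direction. The 28 genes of ribosome assembly and rRNA synthesis had a median of 0.02, with 0 past that threshold, from Heatr1, a factor of the small subunit processome, at -0.11 (SE 0.06) to Gar1, a protein of the pseudouridylation complex, at 0.19 (SE 0.10). The 78 genes of mitochondrial ribosomal proteins had a median of 0.04, with 3 higher (3.85%) and 0 lower, from Mrps30 at -0.16 (SE 0.08) to Mrps21 at 0.25 (SE 0.07). Of 16 genes of the mTORC1 pathway, with a median of 0.02, 0 were higher and 1 was lower (6.25%), and 0 of all these genes were called. The lower one was Deptor, an inhibitor of mTOR, at 21.96, 19.2 and 22.2 CPM in vehicle and 11.2, 16.6 and 16.5 CPM in SP. Each SP value lay below each vehicle value, with SP 1 the lowest (log2FC -0.53, SE 0.14, FDR 0.35 by edgeR's quasi-likelihood test). The largest log2FC of that pathway was that of Rps6kb2, a kinase of Rps6, at 0.15 (SE 0.07).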

How the data were processed

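RNA was measured in 6 hippocampal libraries, 3 of each group, by stranded mRNA sequencing. Per the study's methods and the labels, the authors trimmed reads with Trim Galore, aligned them to GRCm38 with STAR and deposited estimated counts per gene from Salmon, with no scaling to depth or length. Salmon divides reads between similar genes, so that the estimates of members with retrocopies depend on it. Canonical members shared up to 94.1% of their 31-base stretches with other genes (median 44.5%, over 50% in 27 genes), and the 295 -ps genes held 900 to 1083 counts per library in all. The version of each of these tools and the annotation release are not given in the sources used here.

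The estimated counts were rounded and fitted in R 4.3.3 with edgeR 4.0.16, with TMM factors of 0.993 to 1.01, filterByExpr (minimum count 10, minimum total count 15), glmQLFit and glmQLFTest. The batch number of the labels entered as a block, as the study's methods adjust for replicates. The deviations from the group means of mice with the same number correlated at 0.02, -0.06 and 0.10 across all tested genes and at -0.31, -0.13 and -0.44 across the canonical genes, so the pairing comes from the labels alone. P-values were adjusted over 17069 genes by Benjamini-Hochberg. Level per length is CPM divided by the shortest principal coding transcript of GENCODE M21, or the median of coding transcripts where none was marked. The fits were also run on simulated data, with log2 changes larger than that of any tested member, so that this run did not cover changes of the members' size. The members, gene lists, pairs and tests were chosen with earlier results of these data known. Named genes were the paralogs and partners, the 5 highest and 5 lowest by log2FC, by level per length and by within-group SD, members at 0 in some libraries, and the extremes of each list. Other members named, Rplp0, Rplp2, Rps6, Rpl15, Rps21 and the genes highest or lowest in SP 2, were chosen after their values were seen. Individual values of 3 ribosomal protein genes are not reported here, and the points of those in the set are left out of the plots of levels and fold changes, while counts and medians over the set include them. P-values measure the spread between mice of 1 experiment. Intervals cover counting error only. Alternatives were no block, DESeq2 1.42.0, limma-voom (limma 3.58.1), other size factors and filters, batches left out, summing with the -ps genes and removing a length and GC trend. Leaving out single libraries without the block was added after seeing the data.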

Additional observations from a re-analysis of the deposited data

How the results depend on the processing

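In every alternative 0 members were called and 0 had an unadjusted p under 0.05 and were lower, and the median log2FC of the members stayed above 0. The number called over all tested genes differed widely between alternatives. It was 0 of 15670 with at least 10 counts in every library and 0 of 17069 with the length and GC trend removed. It was 26 of 28039 in DESeq2, 384 of 28039 without the filter and 357 of 16952 without SP 3 and without the block. The count of members that were higher at that threshold was 22 and became 14 in DESeq2 with the block, 31 without the replicate block, and 2 to 67 with a batch left out. With single libraries left out and no block, an alternative chosen after seeing the data, it was 14 without vehicle 1, 47 without vehicle 2, 10 without vehicle 3, 50 without SP 2 and 11 without SP 3. Members whose groups did not overlap in either direction numbered 18. They numbered 32 with the length and GC trend removed (19.2% of all tested genes). With a batch left out, where 2 against 2 is not comparable with 3 against 3, they numbered 38 without batch 1 (38.4% of all tested genes), 75 without batch 2 (44.0%) and 19 without batch 3 (42.6%). The difference in summed share ranged from 0.0416 to 0.157 percentage points with a batch left out. Groups separated in 2 to 3 of 9 paralog pairs with a batch left out (2 against 2), where 38.4% to 44.0% of all tested genes separated. Pairing by the replicate block put 1 pair at the smallest possible p of the exact paired test, 0.25, so that this test could not show a shift. The block changed no other call. Over 440 refitted values of 37 named members, 422 kept direction and side of the FDR threshold. Without the filter Rplp1 (FDR 0.0874) passed an FDR of 0.1 in edgeR's test, with |log2FC| under 0.3. The other 17 values reversed, in 11 members. With a batch left out, the reversed log2FC ranged from -0.24 to 0.22 for Rpl22l1, -0.029 to 0.23 for Rpl35, -0.28 to 0.061 for Rpl37rt, -0.087 to 0.069 for Rpl7l1, -0.096 to 0.045 for Rpl18, -0.56 to 0.70 for Rps3a2, -0.0040 to 0.38 for Rpl38, -0.060 to 0.34 for Rpl39, -0.077 to 0.20 for Rps27, -0.0068 to 0.27 for Rps27l and -0.029 to 0.16 for Rps4l. Elsewhere it reversed for Rpl22l1 at 0.0063 without the block, Rpl22l1 at 0.0018 in limma-voom, Rpl22l1 at 0.041 with the length and GC trend removed, Rpl7l1 at 0.015 with the length and GC trend removed and Rps27 at -0.034 with the length and GC trend removed. The cause of these changes was not tested. The median SE of a member's log2FC was 0.07, and at 3 mice in each group differences well above their SE also went uncalled. Rpl37, for example, had a log2FC of 0.23 (SE 0.07) and an FDR of 0.38 in the main edgeR fit. Reads shared between retrocopies limit the paralog counts.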
